A study of Danio rerio with 14 samples.

Results

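The long arm of chromosome 4 of zebrafish carried few peaks of Rad21 or CTCF at 4.5 and 10 hours post fertilisation (hpf), and those it carried stood farther apart than on the rest of the chromosome, with a smaller share of sites common to Rad21 and CTCF. The members described here are all peaks of chromosome 4 whose centre lies at or beyond 24 Mb in the 3 lists of the later stages, chosen by position alone. They number 84 of 7144 Rad21 peaks at 4.5 hpf, 140 of 18075 Rad21 peaks at 10 hpf and 111 of 14079 CTCF peaks at 10 hpf, 335 of 39298 in all. The 171, 436 and 320 peaks of the same lists before 24 Mb, called the short arm below, serve for comparison.

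Binding was mapped by chromatin immunoprecipitation followed by sequencing in whole AB/PS embryos, with custom antibodies against Rad21 or CTCF and with inputs made without antibody. At 4.5 and at 10 hpf each antibody and each input had 2 libraries of 50 bp reads, from separate collections of 1000 pooled embryos whose chromatin was sheared in 10 cycles. The labels name no treatment and no mutation. Rad21 at 2.5 hpf was used here only for comparison, in counts, densities, overlaps and distances. Its libraries came from collections of 2000 embryos, with 6 cycles of shearing, 125 bp reads and another library kit. Whole embryos mix all cell types of a stage, so binding in a few cells and weak binding in many cannot be told apart. Every list pools the libraries of its stage and antibody, or was taken to. No value below therefore has a spread between replicates, no test between arms was run, and intervals are exact 95% binomial ones that cover counting error alone. The headers give 14255160 tags behind the 4.5 hpf list, 13260105 behind the 10 hpf Rad21 list and 28291282 behind the CTCF list.

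Rad21 is the subunit that closes the cohesin ring. Cohesin holds sister chromatids together and extrudes chromatin loops, and in vertebrates it halts where the zinc finger protein CTCF is bound to its DNA motif. The long arm of zebrafish chromosome 4 is known as a largely heterochromatic, late-replicating arm that is rich in repeats, in small RNA genes and in large families of zinc finger and immune receptor genes. Coordinates are 1-based on the Zv9 build, all on chromosome 4. No sequence or gene annotation of that build was used here, so positions are given without genes.

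Peaks of all 3 lists were several times sparser on the long arm than on the short arm. Over 38.1 Mb the long arm held 2.21 Rad21 peaks per Mb at 4.5 hpf, where the 24 Mb of the short arm held 7.12, a ratio of 0.31 (interval 0.24 to 0.40). Rad21 at 10 hpf stood at 3.68 peaks per Mb on the long arm and 18.2 on the short arm, a ratio of 0.20 (0.17 to 0.25). For CTCF the densities were 2.91 and 13.3 per Mb, a ratio of 0.22 (0.17 to 0.27). The long arm thus makes up 61.3% of the chromosome's length and held 32.9%, 24.3% and 25.8% of its peaks in the same order. Among the 24 other chromosomes the lowest densities were 4.41 per Mb on chromosome 18 for the 4.5 hpf list, 11.95 on chromosome 14 for Rad21 at 10 hpf and 8.92 on chromosome 7 for CTCF, all above the long arm. The short arm, in contrast, stood above the highest of these chromosomes in each list, which reached 6.29, 16.04 and 13.00 per Mb. Densities are of listed peaks over assembled length. How much of each arm 50 bp reads can be placed on, and its part in these ratios, was not tested.

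The peaks nearest to the dividing line give the distance at which members begin. With the line at 26 Mb the long arm would hold 77, 113 and 92 peaks in place of 84, 140 and 111. The last Rad21 peak before it at 4.5 hpf was 23069079 to 23069247, 931 kb away, and the first beyond it 24348531 to 24348699, 349 kb away. At 10 hpf the neighbours of the line were the Rad21 peaks 23735197 to 23735385 (265 kb before) and 24135883 to 24136071 (136 kb beyond). The CTCF peaks nearest to it were 23948023 to 23948187 (51.9 kb before) and 24232520 to 24232684 (233 kb beyond).

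Density was already lower just before 24 Mb, dropped further near 30 Mb and was higher again towards the end of the arm. The window from 22 Mb, the last of the short arm, held 3 Rad21 peaks of 4.5 hpf, 19 of 10 hpf and 16 CTCF peaks, the fewest of that arm in each list. In windows of 2 Mb the short arm held 19 to 46 Rad21 peaks at 10 hpf (median 37.5), and the long arm 0 to 27 (median 4.0). The last long-arm window, of 90.1 kb alone, was counted like the others. The windows from 24, 26 and 28 Mb held 27, 15 and 14 of these peaks, and the window from 30 Mb held 0. CTCF gave 19, 21 and 10 peaks in the same 3 windows and 2 in the window from 30 Mb. Rad21 at 4.5 hpf gave 7, 10 and 7 and then 3. For CTCF the short arm ranged from 16 to 38 peaks a window and the long arm from 0 to 21, and for Rad21 at 4.5 hpf the ranges were 3 to 24 and 1 to 10.

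**Figure D1:**
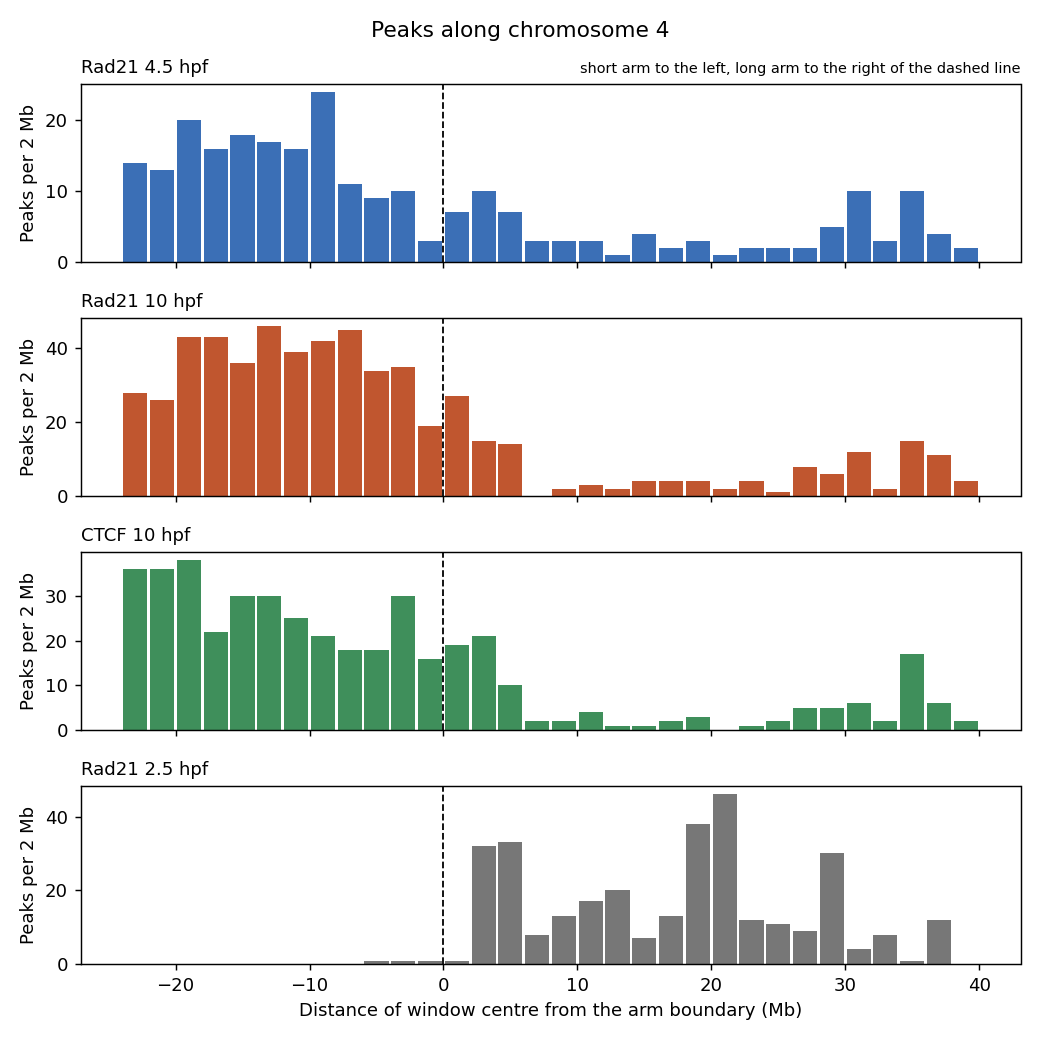
Number of peaks per 2 Mb window of chromosome 4 (y axis) against the distance of the window's centre from the 24 Mb line in Mb (x axis), 1 panel for each list; the last window holds 90.1 kb of sequence alone. The 3 later lists fall to 5 or fewer peaks in all between 6 and 8 Mb beyond the line and rise again towards the end, while the 2.5 hpf list lies nearly all beyond the line.

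Divided at 30 and 50 Mb, a choice made after the windows were seen, the arm had 3 unlike sections. The section from 24 to 30 Mb held 24 and 56 Rad21 peaks of the earlier and the later list and 50 CTCF peaks, or 4, 9.33 and 8.33 per Mb. These are 0.56 (0.35 to 0.86), 0.51 (0.38 to 0.68) and 0.62 (0.45 to 0.84) times the density of the short arm. The middle section from 30 to 50 Mb held 24, 26 and 18 peaks in the same order, or 1.20, 1.30 and 0.900 per Mb. Its density was 0.17 (0.11 to 0.26) times that of the short arm in the 4.5 hpf list and 0.07 in both 10 hpf lists, with intervals of 0.05 to 0.11 for Rad21 and 0.04 to 0.11 for CTCF. The last section, from 50 to 62.1 Mb, held 36, 58 and 43 peaks, or 0.42 (0.28 to 0.60), 0.26 (0.20 to 0.35) and 0.27 (0.19 to 0.37) times the short arm's density.

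No stretch of like length elsewhere was as empty as the middle section. Its 20 Mb held 68 peaks of the 3 lists together, 3.40 per Mb. Among 826 overlapping stretches of 20 Mb on the other chromosomes, stepped by 1 Mb, the emptiest was the start of chromosome 7, from 0 to 20 Mb, with 403 peaks or 20.1 per Mb. Of the long arm's 38 full 1 Mb windows, 20 held 5 peaks or fewer, as did 12 of 1282 windows on other chromosomes and 0 of 24 on the short arm. The median window held 5 peaks on the long arm, 40.5 on the short arm and 29 elsewhere.

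The fullest 1 Mb windows of the long arm lay near its start and towards its end. The window from 24 Mb held 31 peaks, of which 4 were of the 4.5 hpf list, 19 of the 10 hpf Rad21 list and 8 of the CTCF list. The window from 27 Mb held 30, split 7, 13 and 10 in the same order. The window from 59 Mb held 23, and there CTCF prevailed, with 13 peaks against 4 and 6 of Rad21. At the other extreme the windows from 32 and from 57 Mb held no peak of any of the 3 lists. The longest stretch without a peak ran from 56813014 to 58121549, or 1.31 Mb, between a pair of CTCF peaks. The longest such stretch of the short arm was 0.334 Mb. At the very end of the arm, the last 90.1 kb, beyond 62 Mb, held 2 Rad21 peaks of 4.5 hpf, 4 of 10 hpf and 2 CTCF peaks. This stretch closes with a 10 hpf Rad21 peak by construction, because the largest listed end was taken as the chromosome's end. It includes 1 site of all 3 lists, 62038915 to 62039212, counted in each. Its density is therefore not comparable with that of full windows.

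Counts of the 3 later lists varied together along the arm, and the 2.5 hpf list did not follow them. Across the 20 windows of 2 Mb, Spearman's rho was 0.71 between the Rad21 lists of 4.5 and 10 hpf, 0.81 between Rad21 and CTCF at 10 hpf and 0.80 between Rad21 at 4.5 hpf and CTCF. Against the 2.5 hpf counts rho was -0.20 for the 4.5 hpf list, -0.15 for the 10 hpf Rad21 list and -0.11 for CTCF. These are descriptions over neighbouring windows, which share input libraries at 10 hpf and the content of the assembly. The last of the 20 windows holds 90.1 kb of sequence alone and was counted like the others.

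The 10 hpf list exceeded the 4.5 hpf list by a smaller factor on the long arm than on any other chromosome. The 10 hpf list held 1.67 times as many peaks as the 4.5 hpf list on the long arm (interval 1.26 to 2.21), 2.55 times on the short arm (2.13 to 3.06) and 2.53 times over all chromosomes. The range over the 24 other chromosomes was 2.17 to 3.03. Within the arm the ratio was 2.33 (1.42 to 3.94) from 24 to 30 Mb, 1.08 (0.60 to 1.97) from 30 to 50 Mb and 1.61 (1.05 to 2.51) beyond. The interval at the start of the arm includes the value of the short arm, and in the middle the numbers of both stages were nearly equal. CTCF and Rad21 at 10 hpf stood in about the same proportion on both arms, at 0.79 (0.61 to 1.02) CTCF peaks per Rad21 peak on the long arm and 0.73 (0.63 to 0.85) on the short arm.

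Fewer of the 4.5 hpf Rad21 peaks of the long arm had a 10 hpf counterpart, in proportion, than those of the short arm. Of the 84 peaks 23 overlapped a 10 hpf Rad21 peak by at least 1 bp, or 27.4% (18.2 to 38.2), where the whole 4.5 hpf list gave 41.2%. On the short arm 68 of 171 did, or 39.8% (32.4 to 47.5), an interval that overlaps that of the long arm. Seen from 10 hpf the arms were alike, with 23 of 140 peaks at a 4.5 hpf peak on the long arm, or 16.4% (10.7 to 23.6), and 68 of 436 on the short arm, or 15.6% (12.3 to 19.3), against 16.3% of the whole list. By section 9 of 24 peaks of 4.5 hpf were found again at 10 hpf between 24 and 30 Mb, 4 of 24 in the middle and 10 of 36 at the end.

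The share of peaks common to Rad21 and CTCF at 10 hpf was lower on the long arm than on the short arm, counted from either list. Of the 140 Rad21 peaks of 10 hpf 13 overlapped a CTCF peak, or 9.29% (5.04 to 15.4), against 18.8% of the whole list. The short arm gave 91 of 436, or 20.9% (17.2 to 24.99). The other chromosomes ranged from 15.5% to 21.04%, so the short arm stood near their top and the long arm below them. Of the 111 CTCF peaks 13 overlapped a 10 hpf Rad21 peak, or 11.7% (6.39 to 19.2), against 24.1% of the whole list and 28.4% (23.6 to 33.7) of the 320 on the short arm. The other chromosomes ranged here from 19.6% to 27.9%, with the short arm above all of them and the long arm below. The intervals of the arms do not overlap in either direction. Both directions count the same pairs, 13 on the long arm and 91 on the short arm, so they are 1 observation. With the line at 28 Mb the long-arm shares were 5.10% of 98 Rad21 peaks and 7.04% of 71 CTCF peaks. By section, 8 of 56 Rad21 peaks between 24 and 30 Mb overlapped CTCF, or 14.3% (6.38 to 26.2), an interval that includes the share of the whole list. In the middle section 1 of 26 did, or 3.85% (0.0973 to 19.6), an interval that includes that share too. At the end 4 of 58 did, or 6.90% (1.91 to 16.7), an interval that lies below it.

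The overlap of 4.5 hpf Rad21 peaks with CTCF sites of 10 hpf was small. On the long arm 3 of 84 overlapped a CTCF peak, or 3.57% (0.743 to 10.1), against 11.9% of the whole list and 20 of 171 on the short arm, or 11.7% (7.29 to 17.5). From the side of CTCF these are 2.70% (0.561 to 7.70) of its long-arm peaks, against 6.06% of its whole list and 6.25% (3.86 to 9.49) on the short arm. CTCF was mapped at 10 hpf alone, so the earlier Rad21 peaks are set against later CTCF sites, and the intervals of the arms overlap here. With the line at 28 Mb the long-arm shares were 1.49% and 1.41%.

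**Figure D2:**
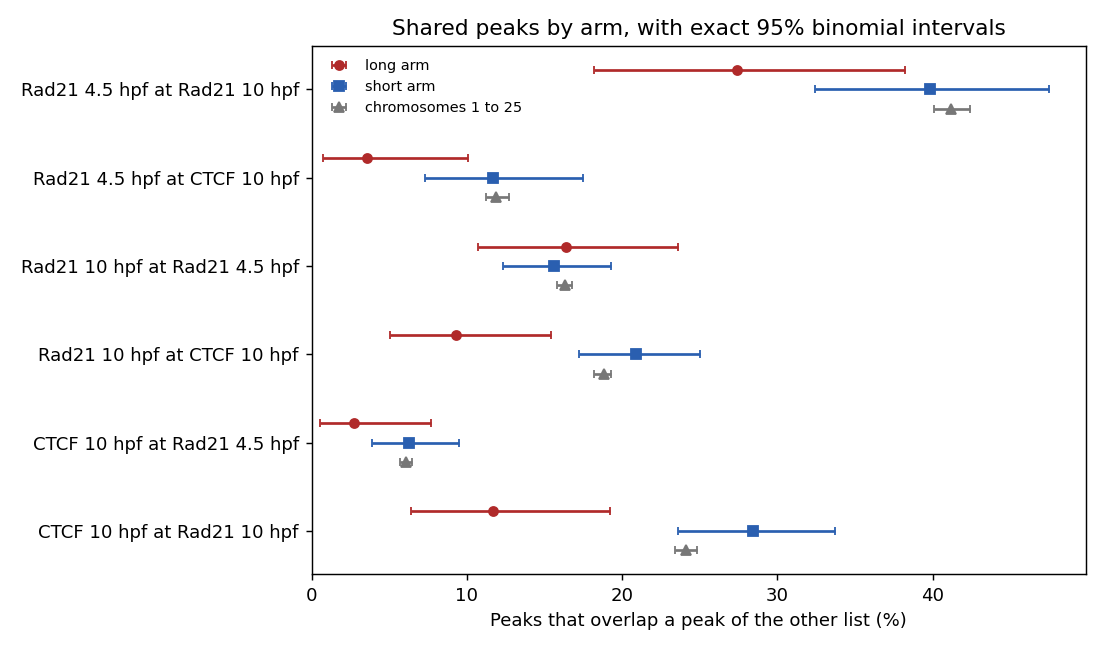
Share of the peaks of one list that overlap a peak of another by at least 1 bp (x axis, %), for 6 ordered pairs of lists, on the long arm (circles), the short arm (squares) and chromosomes 1 to 25 (triangles), with exact 95% binomial intervals. Rad21 at CTCF and CTCF at Rad21 at 10 hpf are the pairs whose intervals do not overlap between the arms, and Rad21 of 10 hpf at Rad21 of 4.5 hpf is nearly equal on both.

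To take the place in the list into account, each share was also set beside that of the 24 other chromosomes weighted to the places the long-arm peaks hold, by deciles of the list. Weighted in this way, 17.0% of 10 hpf Rad21 peaks elsewhere lay at CTCF peaks, where the long arm had 9.29%. For CTCF at Rad21 the weighted share was 18.8%, where the long arm had 11.7%, so that the weighted value lay between that of the arm and the 24.1% of the whole list, and inside the arm's interval of 6.39 to 19.2. Rad21 of 4.5 hpf found again at 10 hpf stood at 40.6% weighted and 27.4% on the long arm. For Rad21 of 10 hpf at 4.5 hpf sites the weighted share was 12.1%, below the 16.4% of the long arm.

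The 335 long-arm peaks made up 298 distinct sites. Of these 60 were listed for Rad21 at 4.5 hpf alone, 106 for Rad21 at 10 hpf alone and 97 for CTCF alone. Another 21 carried Rad21 at both stages, 11 carried Rad21 and CTCF at 10 hpf, 1 carried Rad21 at 4.5 hpf and CTCF, and 2 were in all 3 lists. Sites of more than 1 list were thus 35 of 298, or 11.7%, against 145 of 765, or 19.0%, on the short arm. The same share over all chromosomes was not computed, and the short arm was denser in peaks than any other chromosome. On the short arm 17 sites were in all 3 lists.

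The 2 sites of all 3 lists lie near either end of the arm. The first spans 27331109 to 27331339, with Rad21 at place 6663 of the 4.5 hpf list and 5134 of the 10 hpf list and CTCF at place 1850. The other spans 62038915 to 62039212, close to the end of the listed sequence, with places 5930, 12603 and 6501. Place is a peak's position in the deposited file, used as a rank because the score column is 1 in every row. Neither site stood near the top of a Rad21 list.

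Sites that carried Rad21 at both stages without CTCF included the highest 10 hpf Rad21 places of the arm. The site 24999439 to 24999627 was at place 26 of the 4.5 hpf list and 58 of the 10 hpf list, with peak centres 8 bp apart and the nearest CTCF peak 14.2 kb away. The site 27648282 to 27648508 was at places 2748 and 584, and the site 60245924 to 60246112 at places 859 and 705, with centres 3 bp apart. Next by place at 10 hpf came 27082446 to 27082662 (places 2747 and 1614) and 25477120 to 25477340 (places 5208 and 1805). Of these 5 sites 4 lie before 28 Mb and 1 near the end, and none in the middle section. In the middle, 4 sites carried Rad21 at both stages, at 33641169 to 33641374, 39587457 to 39587647, 45535408 to 45535612 and 46753572 to 46753760. Centres of the 23 shared pairs lay a median of 22 bp apart (0 to 119), and of the 68 pairs on the short arm 29.5 bp (0 to 160).

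Sites of Rad21 and CTCF at 10 hpf without Rad21 at 4.5 hpf numbered 7 before 30 Mb, of 11 on the arm. The highest by place in the Rad21 list were 24232458 to 24232684 (place 2037, CTCF place 2379), 24572598 to 24572792 (7904 and 2653), 25135547 to 25135769 (9150 and 1849), 26362648 to 26362847 (10599 and 7834) and 59896147 to 59896367 (11475 and 1245). The 1 site of Rad21 at 4.5 hpf and CTCF without Rad21 at 10 hpf was 24348531 to 24348737, at places 3735 and 4024. Centres of Rad21 and CTCF lay a median of 50 bp apart in the 13 pairs of 10 hpf on the long arm (13 to 118) and 26 bp in the 91 pairs of the short arm (1 to 170).

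In file order, the top of the 4.5 hpf list was held by a long-arm peak that no other list holds. By identifier number within the chromosome, described below, this peak had 15 and the long-arm peak at place 26 had 12. The peak 56016345 to 56016513 was the first of all 7144, and the nearest Rad21 peak of 10 hpf lay 116 kb away, the nearest CTCF peak 253 kb and the nearest 2.5 hpf peak 12.3 kb. The peak 42795987 to 42796155, at place 111, was likewise alone, with the nearest 10 hpf Rad21 peak at 116 kb. Of the other leading peaks, places 26 and 527 (25140386 to 25140554) were found again at 10 hpf. Place 750, 56718046 to 56718214, had a 10 hpf Rad21 peak 0.580 kb away, close by but not overlapping. The leading long-arm peaks of this list therefore include both sites that lasted and sites that stand alone.

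In the 10 hpf Rad21 list the first 5 long-arm peaks were at places 58, 584, 705, 1373 and 1374. The 3 highest are the lasting sites at 24999439, 27648320 and 60245924 given above. The peak 39031785 to 39031973 was the highest of the middle section, with the nearest 4.5 hpf peak 250 kb and the nearest CTCF peak 526 kb away. The peak 59646236 to 59646424 had a 4.5 hpf peak 1.09 kb and a CTCF peak 6.77 kb away.

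Of the first 5 CTCF peaks of the arm 1 overlapped a Rad21 peak, where 24.1% of the whole CTCF list overlapped one of 10 hpf. With 5 peaks no difference from that share can be read. The first, 46980582 to 46980746 at place 268, lies in the middle section, with the next CTCF peak 1525 kb away and the nearest 10 hpf Rad21 peak 223 kb away. It was followed by 26396712 to 26396876 (place 302), 24947439 to 24947603 (place 802) and 26426011 to 26426175 (place 928), none of which overlapped Rad21. The last of these had a 4.5 hpf Rad21 peak 2.65 kb away. The fifth, 59896203 to 59896367 at place 1245, overlapped a 10 hpf Rad21 peak with centres 44 bp apart.

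Long-arm peaks stood lower in the 10 hpf lists than short-arm peaks, and at 4.5 hpf the order of the arms depended on the rank used. The median place was at 48.4% of the 4.5 hpf list on the long arm (quartiles 24.6 and 82.9) and 52.2% on the short arm. Ranked by identifier number within the chromosome, described below, the 4.5 hpf medians were 46.9% and 41.7%, so that the long arm stood lower. In the 10 hpf Rad21 list it was 63.5% (35.0 and 84.8) against 48.9%. In the CTCF list it was 67.4% (34.0 and 82.5) against 33.9%. For both 10 hpf lists the long arm lay below every other chromosome in file order. Medians of those chromosomes ran from 45.5% to 55.6% for Rad21 and from 42.1% to 57.7% for CTCF. At 4.5 hpf the long arm lay within their range of 37.5% to 60.8%. Tied places, described below, were not averaged for the other chromosomes. The first 10% of each list held 4 of 84, 7 of 140 and 5 of 111 long-arm peaks, or 4.76%, 5% and 4.50%. On the short arm these shares were 10.5%, 11.2% and 16.2%.

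**Figure D3:**
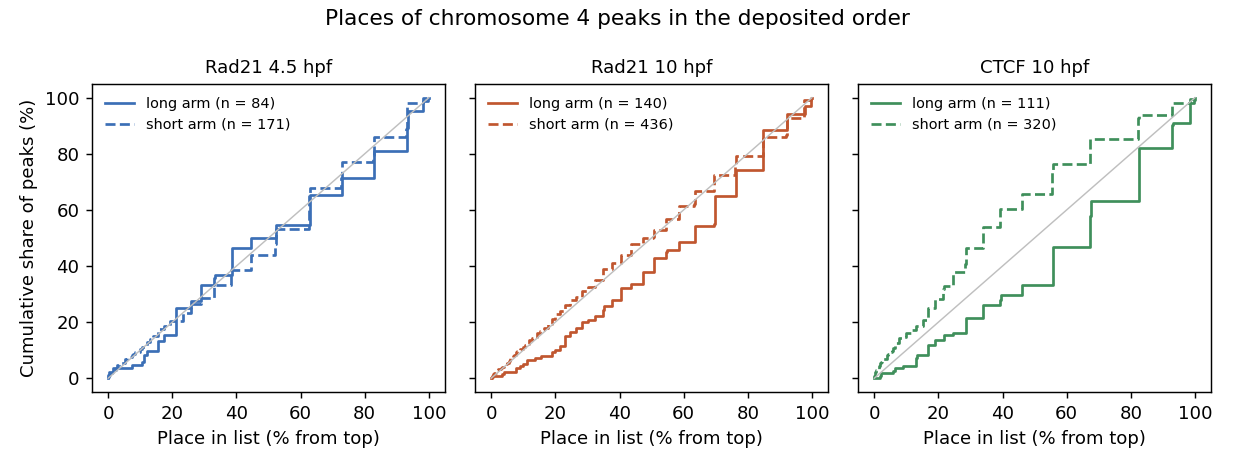
Cumulative share of chromosome 4 peaks (y axis, %) against their place in the deposited order, from the top (0%) to the end (100%) of each list (x axis), for the long arm (solid) and the short arm (dashed); the grey diagonal is even spread. The curves of the arms run close together for Rad21 at 4.5 hpf and apart for CTCF, with medians of 67.4% and 33.9%. Both CTCF medians lie outside the 42.1% to 57.7% of the 24 other chromosomes, with tied places not averaged.

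Peaks of the long arm stood far from each other. The nearest other peak of the same list was a median of 141 kb away in the 4.5 hpf list, 39.5 kb in the 10 hpf Rad21 list and 59.5 kb in the CTCF list, against 40.5, 17.7 and 24.5 kb on the short arm. A neighbour within 10 kb stood by 5 of 84 Rad21 peaks at 4.5 hpf, or 5.95% (1.96 to 13.3), where the whole list gave 16.9% and the short arm 19.9% (14.2 to 26.7). For CTCF 3 of 111 had one, or 2.70% (0.561 to 7.70), against 19.4% of the whole list and 22.5% (18.0 to 27.5) on the short arm. Rad21 at 10 hpf departed least, with 34 of 140, or 24.3% (17.4 to 32.2), against 31.2% of the whole list and 34.6% (30.2 to 39.3) on the short arm. With the line at 22 Mb the CTCF share was 5.51%, and at 30 Mb the 4.5 hpf share was 3.33%. Counted to 20 kb, the shares of long-arm peaks with a neighbour were 5.95%, 35.7% and 21.6% in the order of 4.5 hpf Rad21, 10 hpf Rad21 and CTCF, and those of the short arm 32.2%, 53.2% and 43.8%. The whole lists gave 28.6%, 50.7% and 37.5%. Within 5 kb the long-arm shares were 4.76%, 18.6% and 2.70%, and those of the short arm 13.5%, 19.7% and 14.4%. At that distance the whole lists gave 8.90%, 17.5% and 8.94%. For Rad21 at 10 hpf the long arm thus did not stand below its whole list at 5 kb. Sparse peaks have fewer neighbours by their density alone, and the part of density in these differences was not tested.

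Between lists the gaps were wide as well. The nearest 10 hpf Rad21 peak was a median of 30.3 kb from a 4.5 hpf peak on the long arm and 3.35 kb on the short arm. From a CTCF peak it was 43.6 kb on the long arm and 10.4 kb on the short arm. The nearest CTCF peak was 54.5 kb from a 10 hpf Rad21 peak on the long arm and 18.2 kb on the short arm. Near misses added little to the overlaps: 25 of 84 Rad21 peaks of 4.5 hpf had a 10 hpf Rad21 peak within 1 kb, 2 more than those that overlapped, and 15 of 140 Rad21 peaks of 10 hpf had a CTCF peak within 1 kb, again 2 more. In the whole 4.5 hpf list 3134 of 7144 had a 10 hpf Rad21 peak within 1 kb, and 2946 overlapped one. In the whole 10 hpf Rad21 list 3662 of 18075 had a CTCF peak within 1 kb, and 3391 overlapped one.

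None of the later peaks lay at a 2.5 hpf Rad21 peak, although 315 of these stood on the long arm and 3 on the short arm. No overlap among 84, 140 and 111 peaks allows shares of up to 3.57%, 2.14% and 2.70% by a limit of 3 counts. The exact intervals used elsewhere reach 4.30%, 2.60% and 3.27%. The whole lists gave 0.0280%, 0.0498% and 0.0284%. Few later peaks stood near an early peak without overlap. A 2.5 hpf peak lay within 10 kb of 7 of 84 Rad21 peaks at 4.5 hpf, or 8.33% (3.42 to 16.4), where the whole list gave 0.882%. It did so for 1 of 140 Rad21 peaks at 10 hpf, or 0.714% (0.0181 to 3.92), where the whole list gave 0.741%, and for 1 of 111 CTCF peaks, or 0.901% (0.0228 to 4.92), where the whole list gave 0.980%. With the line at 22 Mb the CTCF share was 2.36%, and at 30 Mb the Rad21 share of 10 hpf was 1.19%. The 3 intervals overlap, and within 50 kb the shares were 16.7% (9.42 to 26.4), 12.1% (7.24 to 18.7) and 9.01% (4.41 to 15.9). Shares of the whole lists within 50 kb were not computed. The whole-list values within 10 kb do not allow for the density of early peaks. That density was 8.27 per Mb on the long arm and 1.48 per Mb over all chromosomes. From the other side, 18 of the 315 early peaks had any later peak within 10 kb, 15 of them a 4.5 hpf Rad21 peak. These 15 stood by the 7 Rad21 peaks of 4.5 hpf counted above, so that some share the same later peak. The same share over all 2.5 hpf peaks was not computed.

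The closest pair of stages was at 39449520 to 39449688, a 4.5 hpf peak 550.5 bp, centre to centre, from a 2.5 hpf peak. That early peak had 2.47-fold enrichment, the authors' value over modelled background. The peak 28184512 to 28184680 lay 738.0 bp from an early peak of 2.66-fold. At 43972280 to 43972448 a 4.5 hpf peak stood 1.11 kb from an early peak of 4.52-fold, and the 10 hpf Rad21 peak 43972454 to 43972642 stood beyond it, 1.30 kb from the same early peak. The other 4.5 hpf peaks of the nearest 5 were 47073663 to 47073831 and 42367845 to 42368013, at 2.57 and 2.84 kb. For CTCF the closest was 36396161 to 36396325, at 4.26 kb. The median early peak of the arm had 4.46-fold enrichment and a pileup of 23 tags. Kit, read length, peak caller and stage differ together between the 2.5 hpf list and the others and cannot be told apart.

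**Figure D4:**
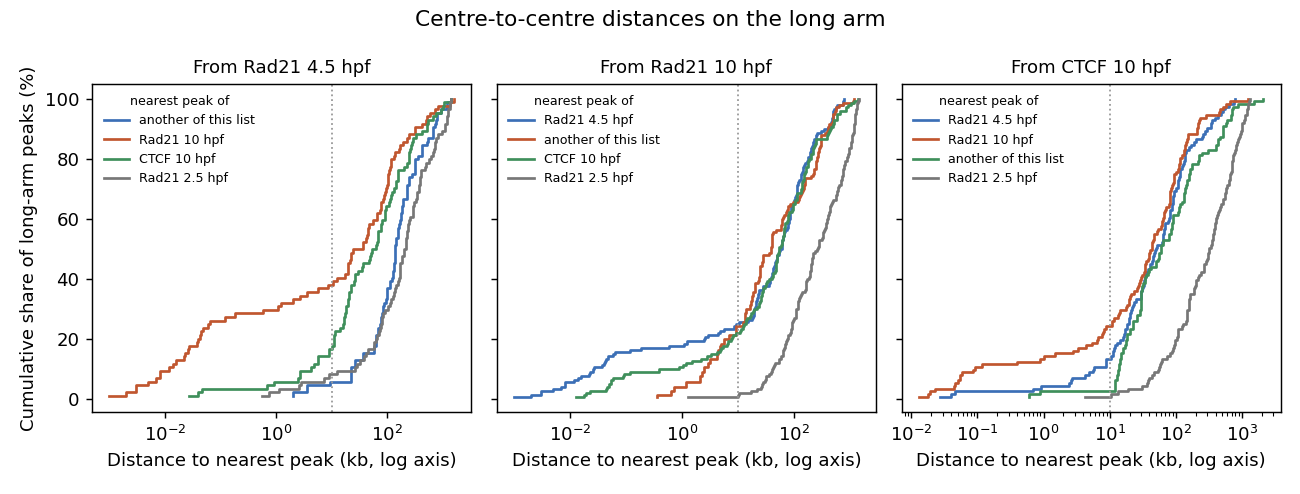
Cumulative share of long-arm peaks (y axis, %) against the distance from a peak's centre to the nearest peak of each list in kb (x axis, logarithmic), 1 panel for each later list; the dotted line marks 10 kb, and pairs with the same centre are drawn at 0.001 kb. The curves towards 2.5 hpf peaks (grey) lie farthest right in the 10 hpf panels, with medians of 267 kb for Rad21 and 321 kb for CTCF.

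The identifiers of the peaks carry a number within the chromosome, and these numbers run beyond the peaks listed. Summed over the chromosomes, the highest numbers come to 18569, 35772 and 90038, or 99.5%, 99.8% and 99.8% of the 18663, 35851 and 90217 putative peaks that the headers of the 4.5 hpf Rad21, 10 hpf Rad21 and CTCF lists count before filtering. The numbers were therefore read as ranks among putative peaks, which the headers do not state. On chromosome 4 the highest number was 859 for 255 listed peaks of Rad21 at 4.5 hpf, so that 29.7% of the numbers were listed, where the other chromosomes ranged from 35.3% to 43.8%. For Rad21 at 10 hpf it was 1301 for 576 peaks, or 44.3%, against 48.2% to 54.6%, and for CTCF 3362 for 431 peaks, or 12.8%, against 13.4% to 18.9%. Chromosome 4 was the lowest of 25 in all 3 lists. Most of the putative peaks dropped over the genome were dropped for too little enrichment over input, 11034, 16425 and 65469 in the same order per the headers. The positions of unlisted candidates are not given, so which arm they lay on, and their part in the low density of the long arm, was not tested.

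**Figure D5:**
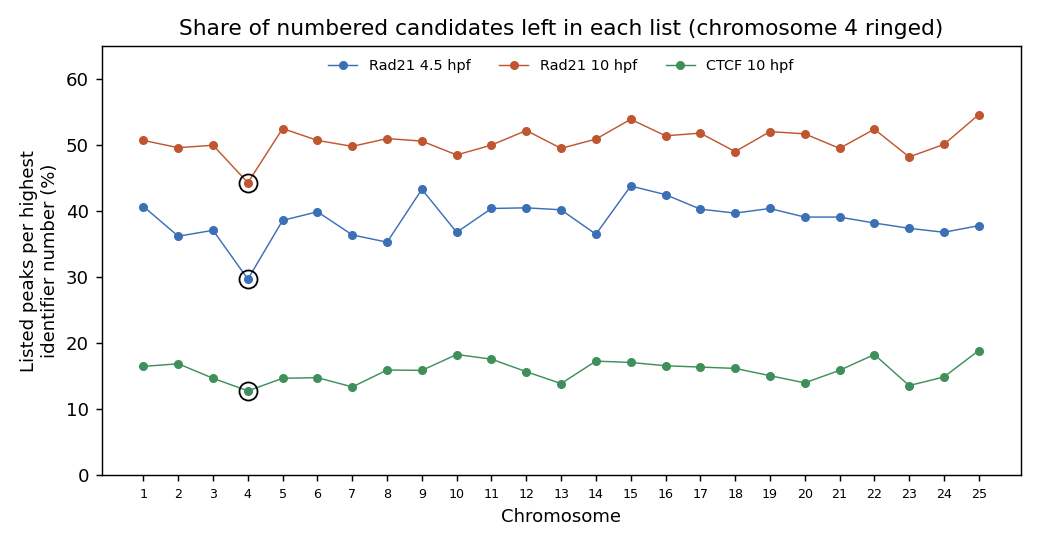
Listed peaks as a share of the highest identifier number of the chromosome (y axis, %) for chromosomes 1 to 25 (x axis) in the 3 later lists, with chromosome 4 ringed. Chromosome 4 is the lowest point of each line, at 29.7%, 44.3% and 12.8%.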

How the data were processed

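The submitters' processing notes name Bowtie2 2.2.1, HOMER and the Zv9 build. Per the file headers, HOMER made the 3 later lists with an FDR threshold of 0.001, requiring 4-fold enrichment over input and over the surrounding 10000 bp, and kept peaks of a list at least 336 bp (Rad21, 4.5 hpf), 378 bp (Rad21, 10 hpf) or 328 bp (CTCF) apart. At most 1 tag per position was counted for Rad21 and 2 for CTCF. One tag directory and one input directory entered each list, taken as pools of both libraries, which the headers do not state. The deposited score is 1 in every row and was not used. The 2.5 hpf list was called with MACS2 2.1.0.20151222 from both pooled libraries, per the file headers. Its pileup (a signal, tags covering the summit), fold enrichment (a ratio over modelled background) and −log10 q are the authors' deposited values, the last used for ranking within that list.

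Peaks on chromosomes 1 to 25 were used, and the end of chromosome 4 was taken as the largest listed end, 62090074. Overlaps, centre-to-centre distances and exact 95% intervals (binomial for shares, conditional binomial for ratios of counts) were computed with Python 3.11.15, SciPy 1.17.1 and pandas 2.3.3. Limits for a count of 0 use 3 counts. The functions were tested on simulated lists. The authors' lists give no value per library, so neither a test across replicates nor an interval beyond counting error could be made. Tags are not independent molecules.

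The members and the comparisons were chosen with earlier results of these data known. Peaks named in the text are, for each list, the first 5 of the arm in file order, every site of all 3 lists, the first 5 sites of each pair of lists, the nearest 5 within 10 kb of a 2.5 hpf peak, those beside the 24 Mb line, and the fullest and emptiest windows. The 4 middle-section sites with Rad21 at both stages were added after their values were seen. Alternatives were other arm boundaries, overlap rules, distances and the first 50% of each list.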

Additional observations from a re-analysis of the deposited data

How the results depend on the processing

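Of 120 alternative values for 18 results, 97 stayed within the 95% interval of the reported value and 23 did not. The density ratio of long to short arm stayed below 1 under every boundary and list tried. It was 0.16 for Rad21 at 10 hpf and 0.15 for CTCF with the line at 30 Mb, 0.16 for CTCF at 28 Mb, and 0.15 and 0.11 with the first 50% of each list. With the first 50% of each list, 24.5% (13.8 to 38.3) of long-arm Rad21 peaks of 10 hpf lay at 4.5 hpf peaks. Of 42 Rad21 peaks of 4.5 hpf 0% lay at CTCF (0 to 8.41). Of 37 CTCF peaks 0% lay at 4.5 hpf Rad21 (0 to 9.49). In those shorter lists 15.1% of Rad21 peaks of 10 hpf and 0% of CTCF peaks had a neighbour within 10 kb, and 0% of CTCF peaks a 2.5 hpf peak. All later lists were cut here, and the same shares of the short arm and of all chromosomes were not computed. With neighbours counted to 20 kb the shares were 35.7% for Rad21 at 10 hpf and 21.6% for CTCF. A 2.5 hpf peak lay within 1 kb of 2.38%, 0% and 0% of the Rad21 4.5 hpf, Rad21 10 hpf and CTCF peaks. In the whole lists 6 of 7144, 10 of 18075 and 10 of 14079 had a 2.5 hpf peak within 1 kb. Within 50 kb the long-arm shares were 16.7%, 12.1% and 9.01%, without whole-list shares beside them. The median CTCF place was 67.5% with the line at 28 or 30 Mb. With the identifier number, as a share of the highest number of the chromosome, in place of file order, the medians were 40.6% for Rad21 at 10 hpf (short arm 27.2%) and 48.6% for CTCF (short arm 16.8%), another scale with the same order of the arms. At 4.5 hpf they were 46.9% and 41.7% for the long and the short arm, where file order gave 48.4% and 52.2%, so there the order of the arms turned. Averaging tied places and placing the line at 30 Mb were added after the data were seen. So were the identifier number and the short-arm and whole-list shares at 5 and 20 kb. Overlap of at least 50% of the narrower peak and centres within 500 bp left every share within its interval. The lists hold 84 to 140 long-arm peaks, which limits each share to the intervals given. No paired analysis was possible because each list pools its libraries, and no replicate was left out for the same reason.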

Other observations

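The deposited order of the later lists holds long ties. Read from the top, each list runs in blocks within which chromosome, as text, and start rise, and then starts over. There were 107 such blocks in the 4.5 hpf Rad21 list, 152 in the 10 hpf Rad21 list and 64 in the CTCF list, the largest with 787, 1648 and 2188 peaks. Blocks of 100 peaks or more held 83.2%, 90.4% and 94.2% of the lists. Places within a block carry no rank, and long-arm peaks stand after short-arm peaks of the same block. Chromosomes too keep a fixed order within a block, so comparisons of median place between chromosomes carry that order. Medians with tied places averaged were computed for the arms of chromosome 4 alone. With tied places averaged, the median long-arm place was 46.6%, 62.2% and 64.3%, and the short-arm one 50.1%, 48.0% and 32.5%. Within the long arm, place and identifier number had a Spearman's rho of 0.88 over 84 peaks, 0.92 over 140 and 0.93 over 111, a description over peaks, which are not replicates.

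After 56813014 to 58121549, the longest stretches of the arm without a later peak were 31946813 to 33161322, with 1.21 Mb, and 37333568 to 38505866, with 1.17 Mb. The 2.5 hpf list held 1, 6 and 2 peaks in these 3 stretches. In the 2 Mb windows from 42 and 44 Mb the 2.5 hpf list held 38 and 46 peaks, where the later lists held 10 and 3 peaks in all.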
